A study of Saccharomyces cerevisiae with 6 samples.

Results

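The glutathione transferase genes of the budding yeast Saccharomyces cerevisiae were followed in cells exposed to chloroacetaldehyde. They were taken as a list of 7 gene names, GTT1, GTT2, GTT3, ECM4, GTO1, GTO3 and URE2, matched by symbol or synonym to the platform's annotation. The annotation named 1 spot each for 6 of them. URE2 was named on no spot and was not analysed here. All 6 had a value on at least 2 hybridizations, out of 5064 such genes, and GTT2, GTT1, GTO1 and GTT3 had a value on all 3, out of 3642.

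Cells of strain S288C were grown in rich glucose medium at 25 °C to an optical density of 1. The exposed cells then received chloroacetaldehyde, a chlorinated aldehyde that reacts with thiols and with nucleic acid bases, at 25 ppm for 2 h. They were compared with cells of the same strain taken before the exposure. Polyadenylated RNA of exposed cells (Cy5) and of cells before exposure (Cy3) was hybridized together on 3 arrays from independent biological samples, each scanned at high and low laser power. Each value is a log2 ratio, exposed over before, with 0 meaning no difference. Base 2 and this direction are the likely reading, since the labels give the exposed cells first, in the Cy5 channel. Under the opposite reading all signs given here would be inverted. The dye order was the same on all arrays and the exposed cells had grown 2 h longer, so dye and time in culture cannot be told apart from the exposure.

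Glutathione transferases join the thiol of glutathione to reactive electrophiles, and the conjugates are then moved into the vacuole or out of the cell. In yeast, GTT1 and GTT2 encode the classical transferases, of which Gtt1 is bound to the endoplasmic reticulum. GTO1, ECM4 (also named GTO2) and GTO3 encode omega-class enzymes, which carry a cysteine in the active site and act more like glutaredoxins; Gto1 is peroxisomal. GTT3 encodes a less well characterised protein linked to glutathione metabolism. Ure2 has a glutathione transferase fold and holds the GATA factor Gln3 in the cytoplasm when good nitrogen sources are present. Many yeast genes for the removal of electrophiles are activated by Yap1, a transcription factor that responds to oxidants and thiol-reactive compounds.

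Of the transferase genes, GTT2, ECM4 and GTT1 were above 0 on average and GTO1, GTO3 and GTT3 below 0. With 3 of the 6 above 0, this was near the share over all genes, 46.7%. Mean log2 ratios ran from 1.59 for GTT2 to -0.49 for GTT3, with a median of 0.17 over the 6 genes against -0.02 over all 5064 genes. Of the 6 genes, 0 passed the test across all genes (limma, adjusted p under 0.05), where 0.0395% of all genes passed. At an unadjusted p under 0.05, GTT2 and ECM4 were higher, against 2.41% of all genes, and 0 of the 6 were lower, against 2.59%. Because earlier results of these arrays were known when the list was made, these counts are a description of the 6 genes.

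**Figure D1:**
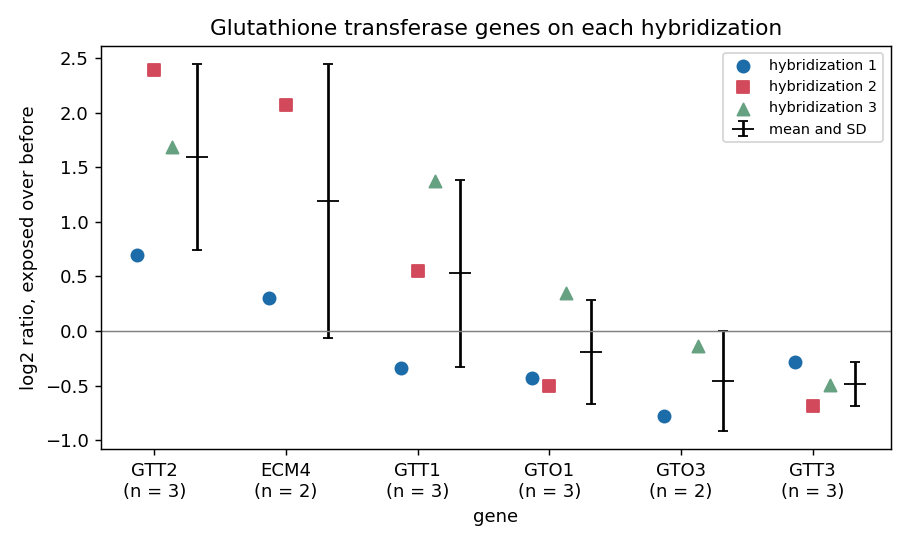
Log2 ratio of exposed over before (vertical axis) for the 6 measured glutathione transferase genes (horizontal axis), with 1 symbol per hybridization and the mean and SD beside them. GTT2 is above 0 on all 3 hybridizations and GTT3 below 0 on all 3, while GTT1 and GTO1 lie on both sides.

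GTT2 (YLL060C) had the highest mean of the family. Its log2 ratios were 0.69, 2.39 and 1.69 on hybridizations 1, 2 and 3, or 1.62-fold, 5.25-fold and 3.22-fold higher in exposed cells. All hybridizations lay above 0, and hybridization 1 was well below the other two. The mean log2 ratio was 1.59 ± 0.85 (SD, n = 3), or 3.01-fold, with a 95% confidence interval from 0.85 to 2.33 before any adjustment for the number of genes (adjusted p = 0.249, limma). It was the 8th highest mean of 5064 genes, and on the single hybridizations its log2 ratio ranked 494th of 5060 genes, 13th of 3852 and 32nd of 4858. Under the opposite reading of the ratios these ranks count from the lowest value. For scale, the sulfite exporter gene SSU1, which passed the test, had 2.69 ± 0.12 (SD, n = 3; adjusted p = 0.00526, limma), and its SD was far smaller than that of GTT2. A mean log2 ratio above 1, which is more than 2-fold, was found for 0.849% of all genes and here for GTT2 and ECM4.

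GTT1 (YIR038C), the other classical transferase gene, had values on both sides of 0. Its log2 ratios were -0.34, 0.55 and 1.37 on hybridizations 1, 2 and 3. Hybridization 1 was below 0 and hybridization 3 reached 2.59-fold higher in exposed cells. The mean log2 ratio was 0.53 ± 0.86 (SD, n = 3; adjusted p = 0.977, limma), with an unadjusted 95% confidence interval from -0.21 to 1.27 that spans 0. Leaving out hybridization 1 gave a mean of 0.96, and leaving out hybridization 3 gave 0.10, so its size rested on single arrays. GTT2 lay above GTT1 on every hybridization, by 1.04, 1.84 and 0.31 on the log2 scale. That difference averaged 1.06 ± 0.77 (SD, n = 3; exact sign-flip test, two-sided, p = 0.25, the smallest p that 3 arrays allow).

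Among the omega-class genes, ECM4 (YKR076W) had a positive mean, and GTO1 and GTO3 had negative ones. ECM4 and GTO3 were both measured on hybridization 1 alone. ECM4 had log2 ratios of 0.30 on hybridization 1 and 2.07 on hybridization 2 and no value on hybridization 3. Both were above 0, but the mean of 1.19 ± 1.26 (SD, n = 2; adjusted p = 0.907, limma) had an SD larger than itself. Its value on hybridization 2, 4.21-fold higher in exposed cells, ranked 18th of 3852 genes, close behind GTT2. On hybridization 1 it ranked only 1298th of 5060. On the 2 arrays that measured both, GTT2 exceeded ECM4 by 0.40 and 0.32 on the log2 scale, so both genes were lower on hybridization 1 than on hybridization 2, by similar amounts.

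GTO1 (YGR154C) had log2 ratios of -0.43, -0.50 and 0.35 on hybridizations 1, 2 and 3. It was below 0 on the first 2 arrays and above 0 on the third. The mean was -0.20 ± 0.47 (SD, n = 3; adjusted p = 0.977, limma), and leaving out hybridization 3 gave -0.47, against -0.08 without hybridization 1 and -0.04 without hybridization 2. GTO3 (YMR251W) had -0.78 on hybridization 1 and -0.14 on hybridization 3, with no value on hybridization 2. Both were below 0, and the mean log2 ratio was -0.46 ± 0.46 (SD, n = 2; adjusted p = 0.977, limma). Omega-class genes are related in sequence and a cDNA spot for one may bind RNA of another; this was not tested.

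GTT3 (YEL017W) was the member with the lowest mean and the smallest spread. Its log2 ratios were -0.28, -0.69 and -0.50 on hybridizations 1, 2 and 3, all below 0. The mean was -0.49 ± 0.20 (SD, n = 3), or 1.40-fold lower in exposed cells, and it did not pass (adjusted p = 0.953, limma). Its unadjusted 95% confidence interval ran from -1.02 to 0.04. Of the 4 members measured on all 3 arrays, GTT2 alone was above 0 on every one, a pattern held by 11.5% of the 3642 genes so measured. GTT3 alone was below 0 on every one, a pattern held by 16.1% of them. With 1 gene in each direction, these counts say nothing about the family.

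In the order of mean log2 ratios, GTT2 was followed by ECM4, GTT1, GTO1, GTO3 and GTT3. ECM4 exceeded GTT1 by 1.08 ± 0.62 (SD, n = 2) on the arrays they share, and GTT1 exceeded GTO1 by 0.72 ± 0.55 (SD, n = 3), in the same direction on every array. GTO1 exceeded GTO3 by 0.42 ± 0.10 (SD, n = 2). GTO3 and GTT3 did not differ beyond their spread, with a difference of -0.07 ± 0.61 (SD, n = 2) that changed sign between arrays. For pairs that share 3 arrays an exact sign-flip test cannot give a p below 0.25, and for pairs that share 2 arrays none below 0.5. No other test of these steps was run. The ends of the order lay furthest apart: GTT2 exceeded GTT3 by 0.98, 3.08 and 2.18 on the 3 hybridizations.

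**Figure D2:**
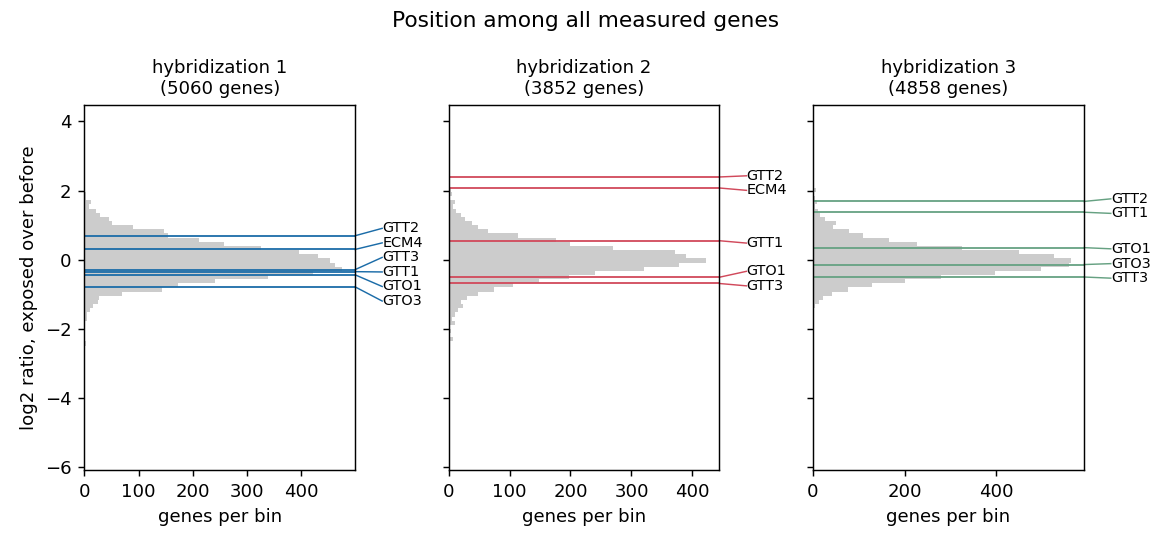
Histograms of the log2 ratio of exposed over before for all genes with a value on each hybridization (genes on at least 2 hybridizations), with coloured lines at the glutathione transferase genes measured there. GTT2 is the highest member in each panel, and it lies closer to the bulk of genes on hybridization 1 than on the others.

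The members with higher means also varied more between arrays. The SDs of GTT2, GTT1 and ECM4, at 0.85, 0.86 and 1.26 on the log2 scale, were above the median SD of 0.37 over all genes, and those of GTO1 and GTO3 were 0.47 and 0.46. Only GTT3, among the 6, had an SD below that median. Hybridization 1 was lower than hybridization 3 for 4 of the 5 members with both values, and lower than hybridization 2 for 3 of 5. The same shares over all genes were not computed, so these counts only describe the members. The median log2 ratio over all genes was between -0.05 and 0.00 on each hybridization. The normalization centres the ratios, so these medians do not show whether the arrays were alike. The SD over genes was 0.54, 0.59 and 0.48 on hybridizations 1, 2 and 3, with values for 5060, 3852 and 4858 genes.

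Every member had 1 spot, and 5 of the 6 had a value from the high-power scan alone; GTT3 also had low-power values on hybridizations 1 and 3. No low-power value on any hybridization was found for 24.8% of the genes tested. Low power was used, per the labels, to recover spots too bright for the scanner, and the sources used here do not say why a spot lacks a value. For GTT3 the high and low scans gave -0.43 and -0.14 on hybridization 1, and -0.47 and -0.52 on hybridization 3. The coding lengths in the R64 annotation fell into groups that follow the classes: 702 bp for GTT2 and 705 bp for GTT1, and 1071, 1101 and 1113 bp for GTO1, GTO3 and ECM4, with 1014 bp for GTT3.

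Other genes of glutathione metabolism mostly had small positive ratios, below that of GTT2. Over the lists for synthesis and breakdown, reduction, transport and aldehyde removal, 29 genes were measured, 20 of them with a positive mean, and the median log2 ratio was 0.14. For all genes the share with a positive mean was 46.7%. None of the 29 passed (0 at an adjusted p under 0.05, limma), and 2 were higher at an unadjusted p under 0.05, against 2.41% of all genes. Of the 25 measured on all arrays, 6 were above 0 on every one, against 11.5% of all genes so measured, and 1 was below 0 on every one, against 16.1%. The number with a mean above that of GTT2 was 0.

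The highest means on these lists were those of GLR1 and GRX5. GLR1, which encodes glutathione reductase, had log2 ratios of 0.59, 1.51 and 0.82 and a mean of 0.98 ± 0.48 (SD, n = 3; adjusted p = 0.578, limma). Like GTT2, it was highest on hybridization 2 and lowest on hybridization 1. The mitochondrial glutaredoxin gene GRX5 had a mean of 0.77 ± 0.31 (SD, n = 3; adjusted p = 0.781, limma). Of the 12 genes for reduction, glutaredoxins and glutathione peroxidases, 9 had a positive mean and 3 a negative one, and the median was 0.20. Of the 10 measured on all 3 arrays, 4 were above 0 on every one, against 11.5% of all genes so measured.

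Of the 7 genes for synthesis and breakdown, 5 had a positive mean, against 46.7% of all genes. The median was 0.15, with 0 past the threshold. The γ-glutamyltranspeptidase gene ECM38 had the largest mean, 0.51 ± 0.76 (SD, n = 3), with values of -0.35, 0.80 and 1.09. GCG1, which encodes a γ-glutamylcyclotransferase that degrades glutathione, had 0.38 ± 0.33 (SD, n = 2). Of the 5 genes for glutathione-dependent aldehyde removal, all had a positive mean, against 46.7% of all genes. The median was 0.21, and 0 passed. However, 0 of the 5 were above 0 on every array, against 11.5% of all genes measured on all 3. The formaldehyde dehydrogenase gene SFA1 had 0.29 ± 0.62, and YJL068C, which encodes an esterase acting on S-formylglutathione, had 0.45 ± 0.49 (SD, n = 3 each). On hybridization 1 both, and every other gene of this list, were below 0, with a list median of -0.11.

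Most transport genes had a negative mean. Of the 5 measured genes for transport of glutathione and its conjugates, 4 had a negative mean and 1 a positive one. A positive mean was found for 46.7% of all genes. The median was -0.35, and 0 passed. The list's medians on hybridizations 1, 2 and 3 were 0.03, -0.36 and -0.10. Of the 4 measured on all 3 arrays, 1 was above 0 on every one, against 11.5% of all genes so measured. Another 1 was below 0 on every one, against 16.1%. The glutathione importer gene OPT1 was below 0 on every array, at -0.98, -0.13 and -0.61, with a mean of -0.57 ± 0.43 (SD, n = 3; adjusted p = 0.953, limma). GEX2, a glutathione exchanger gene, had -0.35 ± 0.41 (SD, n = 2). GEX1 and GEX2 are close copies, and their spots may not tell them apart. Their values differed in sign, however. GEX1 had log2 ratios of 0.03, 0.29 and 0.003, with a mean of 0.11 ± 0.16 (SD, n = 3). GEX2 had -0.64 on hybridization 1 and -0.06 on hybridization 3. YCF1, which encodes the vacuolar pump for glutathione conjugates, was not among the genes tested. On the list of translation factors with a transferase-like domain, 3 genes were measured. Of these, 2 were below 0 on every array, against 16.1% of all genes measured on all 3. TEF4 had -0.81 ± 0.53 and CAM1 -0.47 ± 0.30 (SD, n = 3 each; adjusted p = 0.804 and 0.977, limma). The third, YGR201C, named after its values were seen, had -0.19, 0.30 and 0.54, with a mean of 0.22 ± 0.37 (SD, n = 3). Whether YGR201C acts in translation was not tested.

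**Figure D3:**
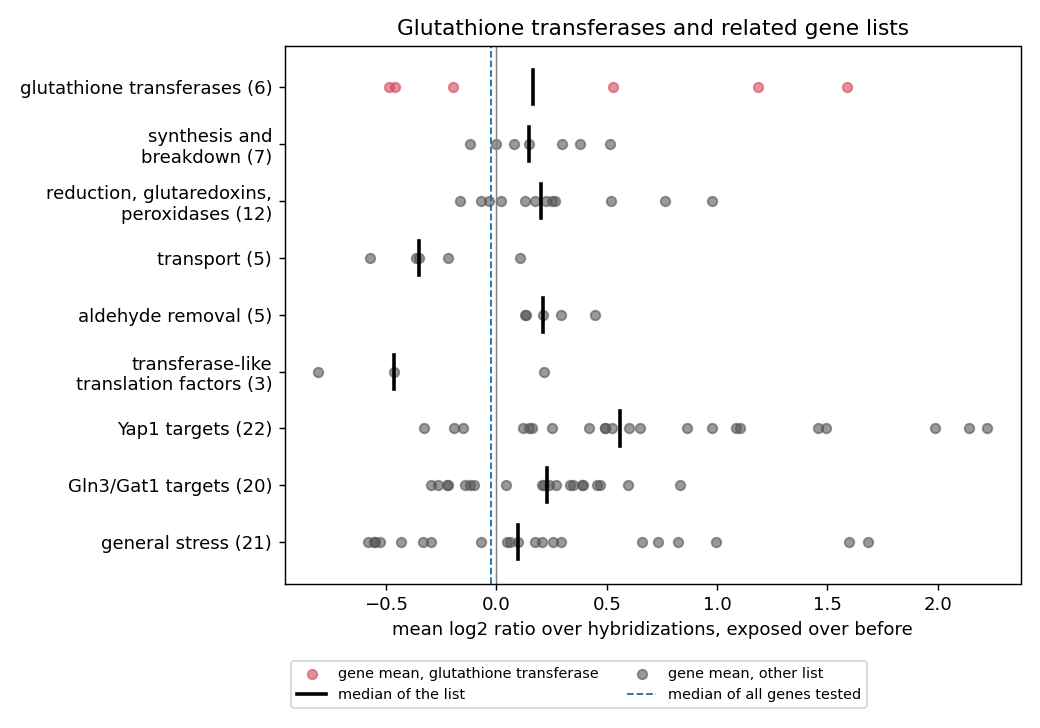
Mean log2 ratio of exposed over before (horizontal axis) for each measured gene, by list (number of genes in brackets), with a bar at each list's median and a dashed line at the median of all genes tested. GTT2 and ECM4 lie above every gene of the glutathione lists, and among the high genes of the Yap1 list.

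Targets of Yap1 formed the list with the highest median, and GTT2 and ECM4 lay within its upper range. Like the other lists, this list was drawn up with earlier results of these arrays known. Its counts and median are therefore a description of its genes, and activity of Yap1 was not tested. Of 22 measured targets other than the transferases, 19 had a positive mean, against 46.7% of all genes, and the median log2 ratio was 0.56. None passed (0 at an adjusted p under 0.05, limma), and 9 were higher at an unadjusted p under 0.05, against 2.41% of all genes. The list shares 4 genes with the glutathione lists; without them 16 of 19 measured genes had a positive mean, with a median of 0.60. Only 3 of the 22 had a mean above that of GTT2, 5 above that of ECM4, and 11 above that of GTT1. The list's medians on hybridizations 1, 2 and 3 were 0.31, 1.17 and 0.43. GTT2 exceeded them on every array and, like the list, was highest on hybridization 2. The list's median on hybridization 3 was close to that on hybridization 1, whereas GTT2 had 1.69 on hybridization 3 and 0.69 on hybridization 1. GRE2, a methylglyoxal reductase gene, had 2.14 ± 0.90, and the aryl-alcohol dehydrogenase gene AAD6 had 1.99 ± 1.02 (SD, n = 3 each; adjusted p = 0.136 and 0.204, limma).

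General stress genes under Msn2 and Msn4 had a different profile over the arrays. Their medians were -0.43, -0.99 and 1.39 on hybridizations 1, 2 and 3, and the 21 gene means had a median of 0.10. Of the 21 genes, 13 had a positive mean, against 46.7% of all genes, and 0 passed (limma), with 3 higher at an unadjusted p under 0.05, against 2.41%. Of the 18 measured on all 3 arrays, 2 were above 0 on every one and 2 below 0 on every one, against 11.5% and 16.1% of all genes so measured. GTO1, at -0.43, -0.50 and 0.35, had the signs of these medians on all 3 arrays, over a smaller range. GTT1 shared with them the negative value on hybridization 1 and the high value on hybridization 3, but not the negative value on hybridization 2. The 2 genes of the list with the smallest p were the 2 above 0 on every array, unlike the list's medians. HSP12, a small heat shock protein gene, had 1.68 ± 0.80, and the cell wall glycoprotein gene YGP1 1.60 ± 0.51 (SD, n = 3 each; adjusted p = 0.210 and 0.180, limma).

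Since URE2 had no spot, the targets of the GATA factors Gln3 and Gat1, which Ure2 helps to keep repressed, are given here without it. Of 20 measured targets, 13 had a positive mean, against 46.7% of all genes. The median log2 ratio was 0.23, against -0.02 over all genes, with 0.02, 0.13 and 0.33 on the hybridizations. Of the 10 measured on all 3 arrays, 4 were above 0 on every one, against 11.5% of all genes so measured, and 1 was below 0 on every one, against 16.1%. None of the 20 passed (0 at an adjusted p under 0.05, limma), and 1 was higher at an unadjusted p under 0.05, against 2.41% of all genes. That gene was PUT2, of proline breakdown, with log2 ratios of 0.64, 1.06 and 0.10 and a mean of 0.60 ± 0.48 (SD, n = 3). PUT1, which encodes proline oxidase, had 0.83 ± 0.91 (SD, n = 2).

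The gene whose 3 log2 ratios were most like those of GTT2 was YGP1, by the root mean square difference over the 3 hybridizations (0.33). It was followed by HSP31 (0.42), which encodes a methylglyoxalase, and by AAD6 (0.46). HSP31 had values of 0.88, 1.68 and 1.73, and AAD6 had 1.07, 3.08 and 1.81, all above 0 as for GTT2. For GTT1 the nearest gene was APE1, a vacuolar aminopeptidase gene (0.10), with -0.50, 0.51 and 1.43. For GTO1 it was the arabinose dehydrogenase gene ARA1 (0.04), and for GTT3 the recombination gene RAD55 (0.04). Likeness over 3 arrays is a description of these values.

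On the chromosomes the transferase genes lie apart from each other, and their direct neighbours, picked by position, gave no common direction. GTT2 lies between MMP1, an S-methylmethionine permease gene with 0.92, 0.76 and -0.10, and HSU1, with -2.42 on hybridization 1 and -0.21 on hybridization 3. Neither followed the values of GTT2. GTT1 lies beside HYR1, which encodes a glutathione peroxidase-like sensor of peroxide that activates Yap1, and HYR1 had -0.42, -0.07 and 0.28. As for GTT1, hybridization 1 was its lowest and hybridization 3 its highest, over a smaller range. ECM4 lies between YKR075C and MSA2, with means of 0.26 ± 1.42 and 0.03 ± 0.25 (SD, n = 3 each). Next to GTT3, PMP2, a proteolipid gene of the plasma membrane proton pump, had 0.64, 0.51 and 0.99, with a mean of 0.71 ± 0.25 (SD, n = 3; adjusted p = 0.799, limma), opposite in sign to GTT3 on every array. On its other side, NPP2 had -0.18, -0.01 and -0.44, the same sign as GTT3 on every array. YPS6, the other neighbour of GTT1, had -0.97 on hybridization 1 and no other value. The neighbours of GTO1, YGR153W and CYS4, had means of 0.25 ± 0.89 and 0.32 ± 1.02 (SD, n = 2 each). Those of GTO3, GAD1 and HOR7, had -0.17 ± 1.15 and 0.17 ± 0.39 (SD, n = 3 each).

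**Figure D4:**
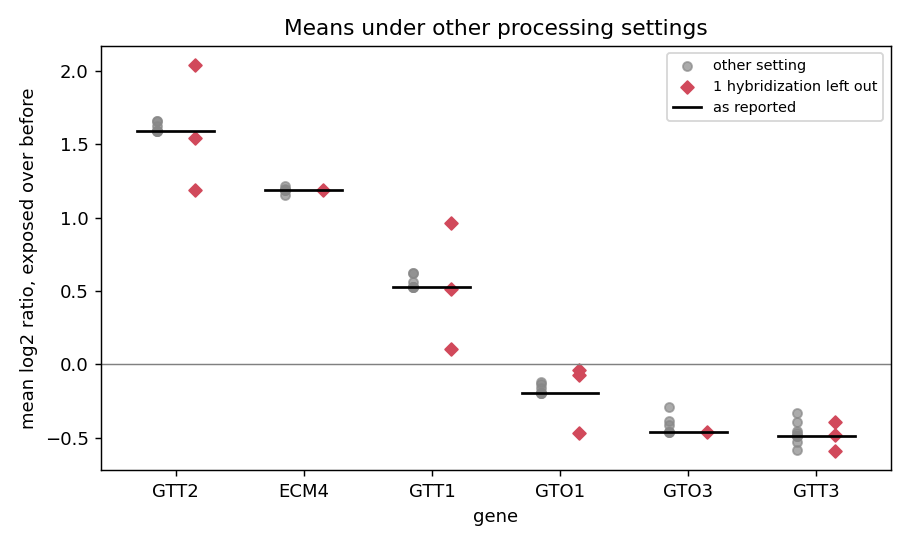
Mean log2 ratio of exposed over before (vertical axis) for each glutathione transferase gene as reported (bar), with each hybridization left out in turn (diamonds) and under the other settings that could be fitted (circles). No mean changes sign, though some settings could not change a mean. GTT1 and GTO1 move most in proportion when a hybridization is left out.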

How the data were processed

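The values are the authors' deposited log ratios per spot, taken as log2, 1 column for each of 6 scans; per the labels, they were normalized by LOWESS using unflagged spots. LOWESS centres the ratios, which hides any shift that most transcripts share. The sources used here give neither background correction nor scanner nor intensity. Of 6912 spots, 5513 carry a gene name, updated through the R64 gene table by Entrez ID; coordinates are not given, since no build is named. High and low scans were averaged within a hybridization, then spots within a gene. The 5064 genes with a value on at least 2 of 3 hybridizations were fitted with limma 3.58.1 in R 4.3.3 (mean ratio against 0, eBayes, two-sided, Benjamini-Hochberg, threshold 0.05); missing values were not imputed, so genes on 2 arrays have fewer degrees of freedom. This fit was checked on simulated data with independent noise for each gene. Such data do not hold differences that many genes share on an array. With 3 arrays, their number limits the precision.

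The members and lists were chosen with earlier results of these data known. Named by rule are the members, the 2 genes of each list with the smallest p, SSU1, and the genes nearest to GTT2 (3) and to the other members on all arrays (1 each); YCF1, GEX1, HYR1 and the other chromosomal neighbours were added after the values were seen. Of 10 sporulation genes, taken as markers that a vegetative culture should lack, 7 were measured, 3 with a positive mean, and 0 passed (limma). Ratios give no level, so presence of such cells was not tested. Alternatives covered scans, genes tested, centring, scaling, spot position, moderation, spot averaging and each hybridization left out. Sequences of the genes were not used here.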

Additional observations from a re-analysis of the deposited data

How the results depend on the processing

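None of the 6 transferase genes passed the test under any alternative that could be fitted for it, and all 56 means so obtained kept their sign. Many of these means could not change. Moderation alters no mean, and spot averaging altered none here, since each gene had 1 spot. The high-power scan alone repeats the values of genes without low-power values, and testing only genes on all 3 arrays keeps their means. For ECM4 and GTO3 the only array that could be left out was the one without a value. Alternatives that left a gene on fewer than 2 arrays gave no value: the low-power scan and genes with both scans could be fitted for GTT3 alone, and the number of members with a positive mean was 0 there for that reason. Leaving out single hybridizations, the mean log2 ratio of GTT2 ran from 1.19 to 2.04, and its adjusted p over all alternatives from 0.173 to 0.868 (limma). The number of genes past the threshold, 2 as reported, was 1 with the high-power scan or after centring, 0 with the low-power scan, and 7 over genes with both scans; leaving out hybridizations it ran from 0 to 3. The number of genes above 0 on every hybridization, 418 as reported, was 139 with the low-power scan and 135 over genes with both scans, where fewer genes had values, and ran from 912 to 956 with 1 hybridization left out, where only 2 signs are needed. No paired analysis was possible because each array already holds both RNAs and there is 1 group. Signal over background is unknown, and with 3 arrays a mean of 1.59 with an SD of 0.85 did not pass.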
